A study of Mus musculus with 13 samples.

Results

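The genes that encode the proteins of the cytosolic ribosome were taken from the RefSeq gene table of the mouse genome GRCm38.p6 by their symbols. Protein-coding genes were kept whose symbol starts with Rpl or Rps and a digit, or is Rplp0, Rplp1, Rplp2 or Rpsa, while Rps6k kinases, Rps19bp1 and symbols that mark a pseudogene were left out. This gave 88 of 21887 protein-coding genes on the placed chromosomes. Of the 88 genes, 77 encode the core proteins, 46 of the large and 31 of the small subunit. The other 11 are paralogs and retrogenes, such as Rpl3l, Rpl10l, Rpl39l and Rps27l. A gene was counted as carrying a peak when the centre of the peak lay within 1 kb of either end of its gene record. Most of these genes are short, with a median length of 3179 bp against 17169 bp over all protein-coding genes.

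Nearly every core protein is present in a single copy in each ribosome, and the genes are among the most strongly transcribed in growing cells. Their mRNAs begin with a run of pyrimidines, the terminal oligopyrimidine (TOP) tract, through which mTOR signalling controls their translation. MYC, one of the reprogramming factors used in these cells, is known to drive ribosome production. NCoR and SMRT are co-repressors that bind the histone deacetylase HDAC3 and switch its activity on, and acetylation of lysine 27 on histone H3 (H3K27ac) marks active promoters and enhancers.

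The study asked how the co-repressors act during the reprogramming of fibroblasts to pluripotency. NCoR and SMRT were mapped by chromatin immunoprecipitation and sequencing in mouse embryonic fibroblasts (MEFs) of strain C57BL/6J-OG2 9 days after OCT4, SOX2, KLF4 and c-MYC (OSKM) were introduced, and in untreated embryonic stem cells (ESCs) of strain C57BL/6J. H3K27ac was mapped in OSKM cultures of the C57BL/6J-OG2 strain at days 5, 9 and 13 that had also received HDAC3-YF, a point mutant of HDAC3 without deacetylase activity, or a FLAG control, and in untreated ESCs and untreated MEFs. The ESCs were kept in serum-free N2B27 medium with LIF, CHIR99021 and PD0325901, whereas the OSKM cultures grew in serum or serum-replacement medium with LIF after viral transduction, so strain and medium differ between ESCs and OSKM cultures along with cell type. Every group was a single library, so no difference between conditions below has a spread between replicates or a test. The intervals given are 95% Wilson intervals over genes and cover counting only. In such bulk cultures, fewer cells carrying a peak and less signal in each cell cannot be told apart.

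The H3K27ac lists held 14251 to 26591 peaks, the day 9 NCoR and SMRT lists 5179 and 4860, and the ESC NCoR and SMRT lists 3687 and 4324. Nanog, Tfcp2l1 and Zfp42, 3 of 8 ESC markers, had an H3K27ac peak at a gene end in ESCs and in no other library, and Col1a1, Col1a2, Fbn1, Thy1 and Pdgfrb, 5 of 8 fibroblast markers, had one in MEFs and none in ESCs. Pou5f1, Sox2, Klf2 and Twist1 had a peak in all 8 H3K27ac libraries, and Esrrb, Dppa5a, Prrx1 and Runx1 had none at a gene end in any. The files hold no read depths.

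Start-site sequences were at hand for 68 of the 88 genes, 57 of them core, in the RefSeq promoter table of GRCm38.p6. They are printed because they show the feature this gene family is known for, the pyrimidine tract at the start of transcription. Each line runs 5′ to 3′ from 60 bases before the annotated start to the 10 bases from the start onward. The capitals mark the unbroken pyrimidine run that crosses the start, as far as it lies within the line. The runs of Rpl27a, Rpl35 and Rpl15 go on past the last base printed, to 20, 18 and 17 pyrimidines. Rps6, Rpl14, Rpl27a and Rpl35 carried a co-repressor site at day 9, and Rplp2, Rpl15 and Rps15a carried none.
Rps6, chr4:86857358-86857427, minus strand: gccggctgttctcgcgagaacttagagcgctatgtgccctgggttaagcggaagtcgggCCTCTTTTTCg
Rpl14, chr9:120571457-120571526, plus strand: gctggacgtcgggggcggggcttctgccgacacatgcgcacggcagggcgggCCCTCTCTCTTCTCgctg
Rpl27a, chr7:109519135-109519204, plus strand: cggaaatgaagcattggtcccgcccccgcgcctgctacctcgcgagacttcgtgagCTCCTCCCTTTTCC
Rpl35, chr2:39005122-39005191, minus strand: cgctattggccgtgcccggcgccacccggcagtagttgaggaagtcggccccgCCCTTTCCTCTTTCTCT
Rplp2, chr7:141447591-141447660, plus strand: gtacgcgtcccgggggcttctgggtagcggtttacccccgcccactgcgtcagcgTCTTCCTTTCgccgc
Rpl15, chr14:18270977-18271046, minus strand: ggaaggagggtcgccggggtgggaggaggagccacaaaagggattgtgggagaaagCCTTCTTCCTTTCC
Rps15a, chr7:118116138-118116207, minus strand: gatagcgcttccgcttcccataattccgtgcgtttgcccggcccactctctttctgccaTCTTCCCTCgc
The run is present in genes with and without a day 9 site. At least 5 pyrimidines crossed the annotated start in 20 of 67 core promoters, 29.9%, against 8.59% of the 21263 promoters of all genes. It was found in 13 of 44 promoters of core genes with a day 9 site and in 7 of 23 promoters of core genes without one. Mitochondrial ribosomal protein genes, whose products build a separate ribosome, had it in 5.33% of 75 promoters. The count depends on where the start is annotated, as Rpl34 has a run of 20 pyrimidines across one of its annotated starts and none across the other.

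Nearly all ribosomal protein genes carried H3K27ac in every cell population. A peak lay at a gene end of 80 of the 88 genes in ESCs, where 48.6% of all genes had one, and of 77 in MEFs, where 48.2% did. Among the OSKM cultures the count was 77 with HDAC3-YF and 76 with FLAG at day 5 (40.8% and 42.2% of all genes), 77 and 76 on day 9 (42.1% and 43.1%), and 76 and 75 on day 13 (43.9% and 42.6%). The set hardly differed from library to library. In all 8 libraries 75 of the 88 genes had a peak, 85.2% of them, against 32.7% of all genes, and 68 had exactly 1 peak in each of the 8. Translation factors, which load and move the ribosome along mRNA, had a peak in all 8 libraries at 32 of 34 genes, and mitochondrial ribosomal protein genes at 55 of 78.

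The 13 genes that lacked a peak in at least 1 library fall into distinct kinds. Rpl17, Rpl22, Rpl38, Rps2 and Rps27l had no peak at a gene end in any library, yet each had one inside its gene record in all 8. Their gene records reach beyond the marked place by more than 1 kb at either end. Rpl18 and Rpl19, with records of the same kind, had peaks at an end in some libraries and inside the gene in all. When the whole gene body with 1 kb on each side was counted, a measure added after the data were seen, all 77 core genes carried H3K27ac in all 8 libraries, and 82 of the 88 genes did, against 39.6% of all genes. Rpl32l, Rpl37rt and Rps27rt, retrogene copies of ribosomal protein genes, had no peak by either measure.

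Rpl10l, Rpl39l and Rps23rg1, the remaining genes, had a gene-end peak in ESCs and none in MEFs. The first 2 of these peaks were weak. Rpl10l, a retrogene known to take the place of Rpl10 in male meiosis, had an ESC score of 7.0, and Rpl39l, a paralog known from the germline and from stem cells, had 8.6. Rps23rg1, a retrogene copy of Rps23, had an ESC peak centred 52 bp from its start with the ceiling score of 200. Inside its gene record it had 1 more peak outside ESCs, of score 9.62, in the day 13 HDAC3-YF library. In all, 7 of the 88 genes had more gene-end peaks in ESCs than in MEFs and 1 had fewer, against 6.78% and 6.19% of all genes. Besides these 3, Rpl3l, a paralog of Rpl3 expressed in striated muscle, Rpl18, Rps15a and Rps24 had 2 peaks in ESCs and 1 in MEFs, and Rpl4 had 1 in ESCs and 2 in MEFs. The added ESC peaks of Rps15a and Rps24 scored 9.41 and 7.9 and lay near the far end of the gene. The peak near the start of these 2 genes was present in both cell types. Rpl3l differed, with an ESC peak of score 28.22 centred 572 bp from its start and none there in MEFs, while its other peak lay in both cell types nearer to Msrb1.

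**Figure D1:**
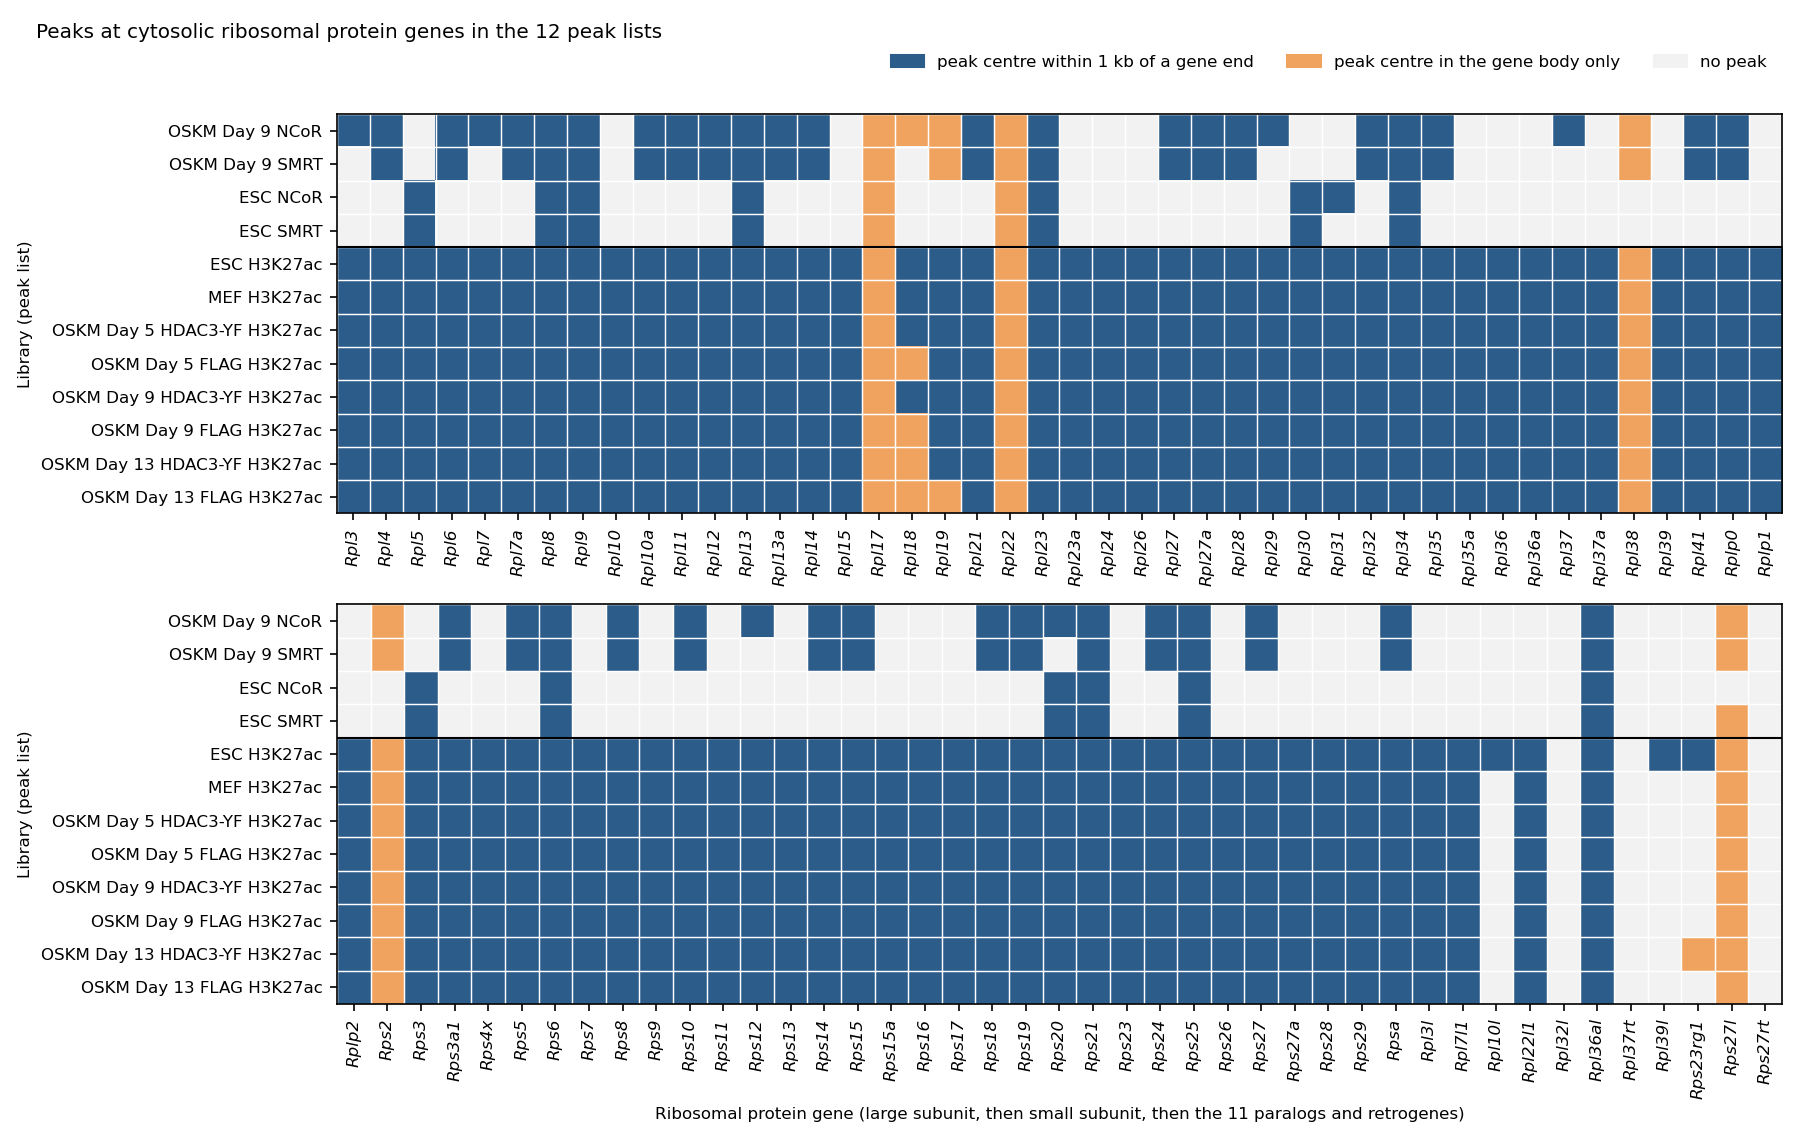
Each column is 1 of 87 ribosomal protein genes, with 1 gene not shown, and each row a peak list, the 4 co-repressor lists above the 8 H3K27ac lists; blue marks a peak centre within 1 kb of a gene end, orange a peak centre in the gene body only, and grey no peak. The H3K27ac rows are blue at 74 of these 87 genes in all 8 libraries, whereas the NCoR and SMRT rows are blue at 42 and 36 genes at day 9 and at 14 and 13 genes in ESCs.

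Co-repressor peaks were found at more ribosomal protein genes in the OSKM cultures than in ESCs. At day 9 NCoR lay at an end of 43 of the 88 genes, where 20.0% of all genes had a peak, and SMRT at 37, where 18.2% did. In ESCs NCoR lay at 14, where 11.3% of all genes had a peak, and SMRT at 13, where 12.6% did. Sites were formed by merging overlapping NCoR and SMRT peaks of the same cells. A day 9 site lay at 43 ribosomal protein genes, 48.9% (38.7 to 59.1) of them, against 21.5% of all genes, and an ESC site at 14, 15.9% (9.72 to 24.95), against 14.2% of all genes. The number of sites in the genome was 5972 at day 9 and 5245 in ESCs.

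These shares were read beside those of other acetylated genes, since co-repressor sites were mostly at acetylated gene ends. Among genes with H3K27ac at an end in the day 9 FLAG library, 43 of 76 ribosomal protein genes had a day 9 site, 56.6% (45.4 to 67.1), against 4432 of 9427 of all such genes, 47.0%. Among genes acetylated in ESCs, 14 of 80 ribosomal protein genes had an ESC site, 17.5% (10.7 to 27.3), against 2873 of 10633 of all such genes, 27.02%. The share of the ribosomal protein genes was above that of acetylated genes at day 9 and below it in ESCs, and each interval took in the share of acetylated genes.

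Both subunits showed the pattern. A day 9 site lay at 26 of 46 core genes of the large subunit and 16 of 31 of the small subunit, and an ESC site at 8 and 5. Of the 11 paralogs and retrogenes only Rpl36al had a site at a gene end, and it had one in both populations. Rps27l had one inside its gene record in both. Other growth genes had similar or higher shares. Of 78 mitochondrial ribosomal protein genes 41 carried a site at day 9, 52.6%, and 12 in ESCs, 15.4%. Of 34 translation factors 24 carried one at day 9, 70.6%, and 9 in ESCs, 26.5%, and among nucleolar growth genes, which make and assemble ribosomal RNA, the counts were 17 and 4 of 30.

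**Figure D2:**
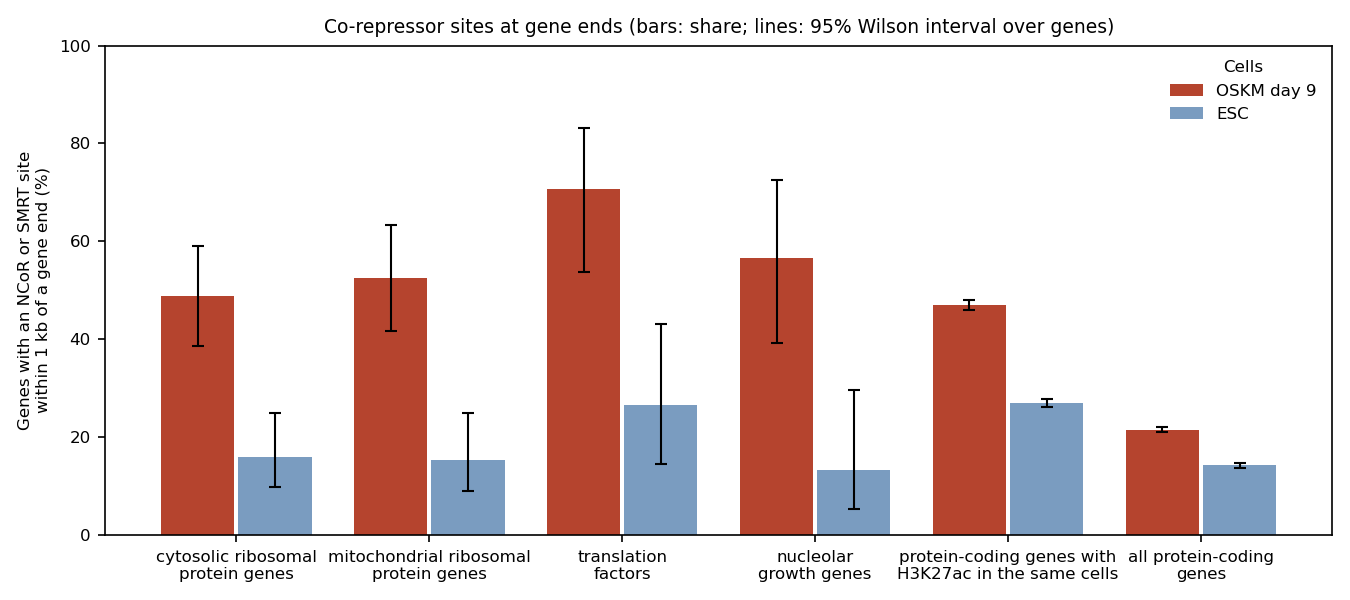
Bars give the share of genes with an NCoR or SMRT site within 1 kb of a gene end in OSKM cultures at day 9 (red) and in ESCs (blue), in percent, and black lines the 95% Wilson interval over genes. The ribosomal protein genes stand at 48.9% and 15.9%, near the mitochondrial ribosomal protein genes at 52.6% and 15.4% and apart from all protein-coding genes at 21.5% and 14.2%.

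Gene by gene, 33 ribosomal protein genes had a site at day 9 alone (13.7% of all genes did), 4 in ESCs alone (6.38%), 10 in both (7.84%) and 41 in neither. The day 9 group took in Rplp0, which anchors the stalk of the large subunit, Rpl11, a sensor of nucleolar stress that binds MDM2, Rps19, whose human counterpart is mutated in Diamond-Blackfan anaemia, and Rpsa, also known as the laminin receptor. Rpl10a, Rpl12, Rpl13a, Rpl14, Rpl21, Rpl27, Rpl27a and Rpl28 were also in it, each with NCoR and SMRT at day 9 and with H3K27ac in all 8 libraries. Rpl5, the partner of Rpl11 in the MDM2 complex, was in the opposite group, with Rpl30, Rpl31 and Rps3. Rpl5 had a peak of NCoR and SMRT in ESCs and none at day 9, and Rpl11 had 1 of each at day 9 and none in ESCs. Rplp1 and Rplp2, the acidic stalk proteins that bind Rplp0, Rps27a, which is made as a fusion with ubiquitin, and Rpl10 had no site in either population.

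The 10 genes with a site in both populations were Rpl8, Rpl9, Rpl13, Rpl23, Rpl34, Rpl36al, Rps6, Rps20, Rps21 and Rps25. In 7 of them a day 9 interval overlapped an ESC interval. Rps6, the ribosomal protein phosphorylated downstream of mTOR, had NCoR at chr4:86857101-86857300 at day 9 and at chr4:86857128-86857327 in ESCs, centres that lay 27 bp apart, 167 bp and 140 bp into the gene. The Rpl8 centres lay 1 bp apart and those of Rps25 35 bp. The Rps25 peaks lay nearer to an end of Trappc4, at 375 bp against 541 bp from Rps25 at day 9 and 340 against 506 bp in ESCs. Rpl34, Rps20 and Rps21 had separate intervals, with centres 227, 332 and 584 bp apart at the nearest. These are distances between centres of 200 bp intervals, so the gaps between intervals were smaller. The Rpl34 distance is that of the day 9 SMRT peak. At Rpl34 the day 9 NCoR peak lay 88 bp before the first annotated start and the ESC peak 174 bp inside the gene from its nearest start.

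The NCoR and SMRT lists held many of the same intervals. Of 47 day 9 NCoR peaks and 40 SMRT peaks at ribosomal protein genes, 35 were the same interval, 74.5% of the NCoR and 87.5% of the SMRT peaks. Over all gene ends the shares were 79.1% and 87.0%. Of 15 and 14 ESC peaks 13 were the same, 86.7% and 92.9%, against 82.5% and 73.6% over all gene ends. Each of these 35 and 13 intervals had the same score in both lists, as did all 4003 day 9 and 2743 ESC intervals common to the whole lists. No source at hand states how such shared intervals were set. The lowest NCoR score was -0.979 at day 9 and -0.990 in ESCs, and the highest SMRT score 0.991 and 0.998. The lists thus appear to be bounded on a common score, so their overlap does not measure how far the co-repressors shared sites. No ribosomal protein gene had SMRT without NCoR at its ends in either population. At day 9 an NCoR peak was listed without a SMRT peak at Rpl3, Rpl7, Rpl29, Rpl37, Rps12 and Rps20, and in ESCs at Rpl31. These peaks scored 1.104 to 1.721 at day 9 and 1.261 in ESCs, above every score of the SMRT list of the same cells. Their absence from that list therefore does not show that SMRT was absent. Over all genes the lists gave NCoR alone at 737 and SMRT alone at 336 at day 9, and at 347 and 633 in ESCs.

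Some of the sites belong as well to a neighbour. Of the 47 day 9 NCoR peaks 8 lay nearer to an end of another protein-coding gene, and of the 15 ESC peaks 2 did. The Rpl9 peak lay 69 bp from the end of Rpl9 and 3 bp from that of Lias, the Rpl37 peak 58 bp from Rpl37 and 7 bp from Card6, and the Rpl12 peak 85 bp from Rpl12 and 27 bp from Lrsam1. Without genes whose sites all lay nearer to another gene, 38 ribosomal protein genes kept a site at day 9 and 13 in ESCs. Counting the gene body added day 9 sites at Rpl17, Rpl18, Rpl19, Rpl22, Rpl38, Rps2 and Rps27l, which brought the day 9 count to 50 and the ESC count to 17 of 88, against 25.5% and 19.6% of all genes.

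Where a strand was known, the peaks could be placed from the start of transcription. Day 9 NCoR centres lay a median of 81.5 bp into the gene (38 peaks) and SMRT centres 103 bp (35 peaks), against 107 and 121 bp over all genes. ESC NCoR and SMRT centres lay at a median of 186 bp (13 peaks each), against 189 and 194.5 bp over all genes. H3K27ac lay further in. Its median was 297 bp in ESCs and 211 bp in MEFs, against 146 and 159 bp over all genes, and 54 of the 60 day 9 FLAG peaks lay inside the gene, against 73.2% of such peaks over all genes. A wider set, the 54 day 9 NCoR peaks in the gene bodies or within 1 kb of them, was set beside the day 9 FLAG H3K27ac peaks. Their centres were a median of 204.5 bp from the nearest H3K27ac centre, and 25 of the 54 overlapped its interval. No such value over all genes is given.

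**Figure D3:**
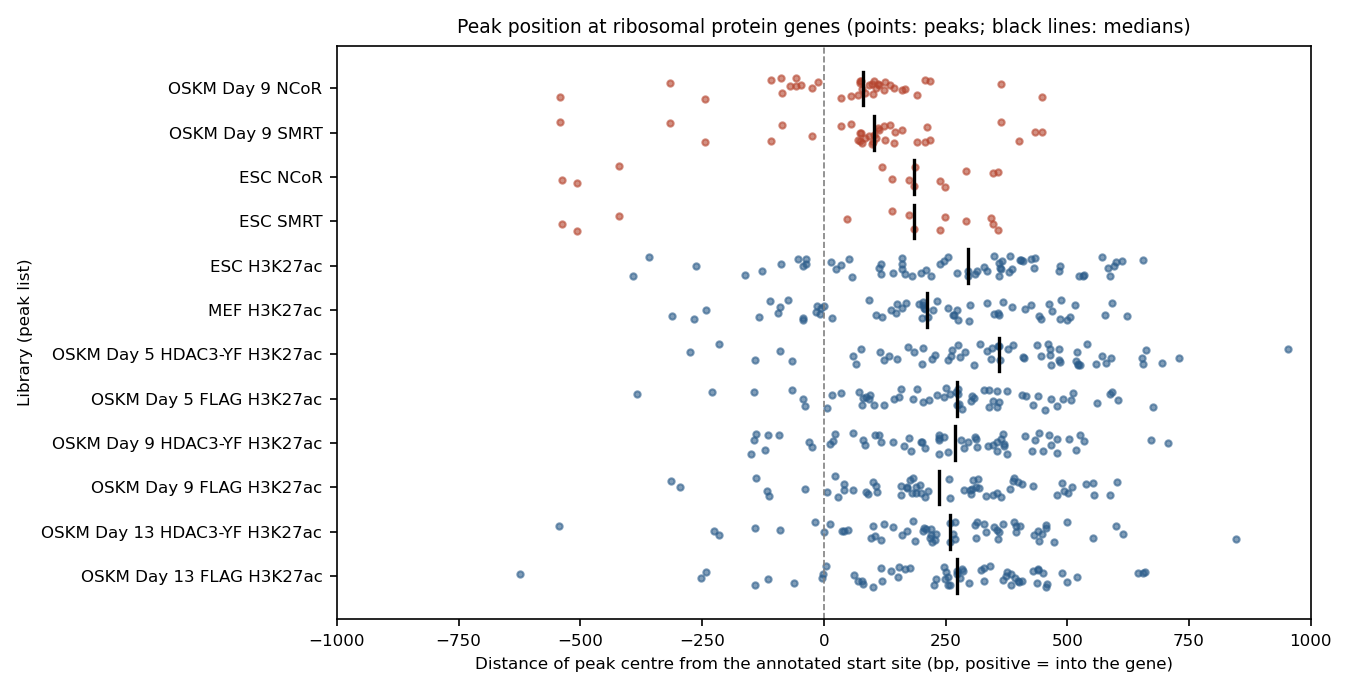
Points are peaks within 1 kb of an annotated start of a ribosomal protein gene, placed by the distance of the peak centre from the start in bp, positive into the gene, with 1 row per peak list and black lines at the medians; points are spread vertically at random within a row. Co-repressor medians lie between 81.5 and 186 bp, and H3K27ac medians between 211 and 359 bp.

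Within 1 kb of the gene ends, the number of H3K27ac peaks was equal with HDAC3-YF and with FLAG at nearly every ribosomal protein gene, but at day 5 this depended on the window. At day 5, 2 of the 88 genes had more peaks with HDAC3-YF and none fewer (2.52% and 3.92% of all genes). At day 9, 2 had more and 2 fewer (3.02% and 4.1%), and at day 13, 1 had more and none fewer (6.05% and 4.66%). Over the 88 genes the HDAC3-YF and FLAG libraries held 82 and 79 peaks for day 5, 81 and 80 for day 9, and 80 and 79 for day 13. These shares are at or below those of all genes. Within 500 bp of the gene ends, the day 5 count with HDAC3-YF was higher than with FLAG at 2 of the 88 genes and lower at 15 (2.58% and 4.38% of all genes). In that window 5 had more and 4 fewer at day 9 (3.44% and 4.38%), and 3 had more and 0 fewer at day 13 (5.94% and 4.38%).

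The few differences in the 1 kb window lay away from the annotated starts. Rpl18 had 2 gene-end peaks with HDAC3-YF and 0 with FLAG at days 5 and 9, and 0 with both at day 13. These peaks lay at -3247 to -2945 bp from the annotated start, before the 5′ end of the gene record. Their scores of 7.07 to 7.95 were close to the bottom of the lists. The peak at the annotated start of Rpl18 was present in all 6 OSKM libraries. The same end of Rpl18 held 2 peaks in ESCs and 1 in MEFs. Rpl4 had 2 peaks with HDAC3-YF and 1 with FLAG at day 5, 1 and 2 on day 9, and 2 with each on day 13. The peak that came and went lay at the far end of Rpl4 and nearer to Snapc5. Rps15a had 2 with HDAC3-YF and 1 with FLAG at day 9, Rps18 had 1 and 2 at day 9, and Rpl19 had 1 and 0 at day 13. The added Rps15a peak scored 8.22. The Rps18 peak, of score 10.38, lay 643 bp from Rps18 and 133 bp from B3galt4. The Rpl19 peak lay 792 bp from Rpl19 and 239 bp from Cacnb1. At annotated starts, 1 of 68 genes had more peaks with HDAC3-YF and 0 fewer at day 5 (2.05% and 3.65% of all genes), and 0 had more or fewer at day 9 (2.72% and 3.84%) and at day 13 (5.88% and 4.33%). Rpl36 and Rpl7l1, a paralog of Rpl7, had 2 gene-end peaks in each of the 8 libraries, and in the ESC and day 9 FLAG lists 1 of them lay nearer to a neighbouring gene.

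Where the number was equal, the place of the peak could still differ. At day 5 the H3K27ac centre lay further into the gene with HDAC3-YF than with FLAG at 46 of 60 ribosomal protein genes with a single start peak in both libraries, by a median of 57 bp (quartiles 1 and 148.25), whereas over 7301 such genes the median was 1 bp and 51.0% lay further in. At day 9 the median was 12 bp, with 33 of 60 further in, and at day 13 it was -18 bp, with 27 of 61 further in. The day 5 displacement was thus not seen at the later days. Between ESCs and MEFs the centre lay further in at 43 of 60 genes in ESCs, by a median of 35 bp, against -15 bp over 7973 genes. Intervals are 200 bp wide, and no source at hand states how they were centred. With 1 library a side, a shift of this size between repeat libraries of the same cells is not known.

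The authors' score ranks the H3K27ac peaks of a list up to a ceiling of 200, on a scale that is not stated, so it was compared between genes of 1 list and never between lists. Ribosomal protein genes were near the top of each. In ESCs 82.8% of their 87 gene-end peaks had the ceiling score, against 48.1% of such peaks over all genes, and in MEFs 86.4% of 81 against 55.7%. In the day 5 lists the share was 56.1% with HDAC3-YF, against 15.5% over all genes, and 50.6% with FLAG, against 18.6%. In the day 9 lists it was 40.7% with HDAC3-YF, against 15.7% over all genes, and 36.3% with FLAG, against 16.2%. In the day 13 lists it was 12.5% with HDAC3-YF, against 2.60%, and 8.86% with FLAG, against 2.35%.

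The 4 genes on the X chromosome, Rpl10, Rpl36a, Rpl39 and Rps4x, were the exception, a split made after the scores were seen. In ESCs all 73 autosomal core genes reached 200 by their highest peak. Rpl36a scored 77.74, Rpl39 104.6, Rps4x 150.3 and Rpl10 200 in ESCs, and 38.03, 102.1, 63.43 and 162.25 in MEFs. Of the autosomal core genes 2 were below 200 in MEFs, the lowest at 129.29, which was Rplp1. At day 9 the 4 scored between 20.85 and 44.58 in the HDAC3-YF list, where the autosomal median was 194.53, and between 7.24 and 124.86 in the FLAG list, where it was 191.13. Rpl10, known from yeast to be needed for late maturation of the large subunit, was the highest of the 4 in 6 of the 8 lists. Over all peaks of the ESC list 15.3% on the X chromosome and 24.7% on autosomes had the ceiling score, and in the day 9 FLAG list 3.18% and 10.4%. None of the 4 genes had a co-repressor site, and 21 of 966 protein-coding genes on the X chromosome, 2.17%, had a day 9 site at an end.

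Core genes with a day 9 co-repressor site had higher median H3K27ac scores than those without in the day 5 FLAG list and in the day 9 and day 13 lists. The split, made after the data were seen, used sites in the gene body with 1 kb on each side. In the day 9 FLAG list the 48 genes with a site had a median score of 200, with a lowest of 62.27, and the 29 without had a median of 114.74, with a lowest of 7.24. In the day 13 FLAG list the medians were 86.56 and 49.35. Without the 4 genes of the X chromosome, all of which lacked a site, the 25 remaining genes had medians of 133.53 at day 9 and 59.89 at day 13. In the day 5 FLAG list the autosomal medians were 200 with a site and 176.03 without. Both autosomal medians were at the ceiling of 200 in the ESC, MEF and day 5 HDAC3-YF lists, where no difference could show. The split is not given for all acetylated genes, so it is not shown to be particular to ribosomal protein genes. The groups overlapped widely, since genes with the ceiling score were in both. Of the 6 core genes that reached 200 in all 8 lists, 5 had a day 9 site, among them Rps6, Rps19 and Rpl9, and 1, Rpl35a, had none. Rplp1, without a site, scored 29.48 with HDAC3-YF and 10.88 with FLAG at day 9.

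**Figure D4:**
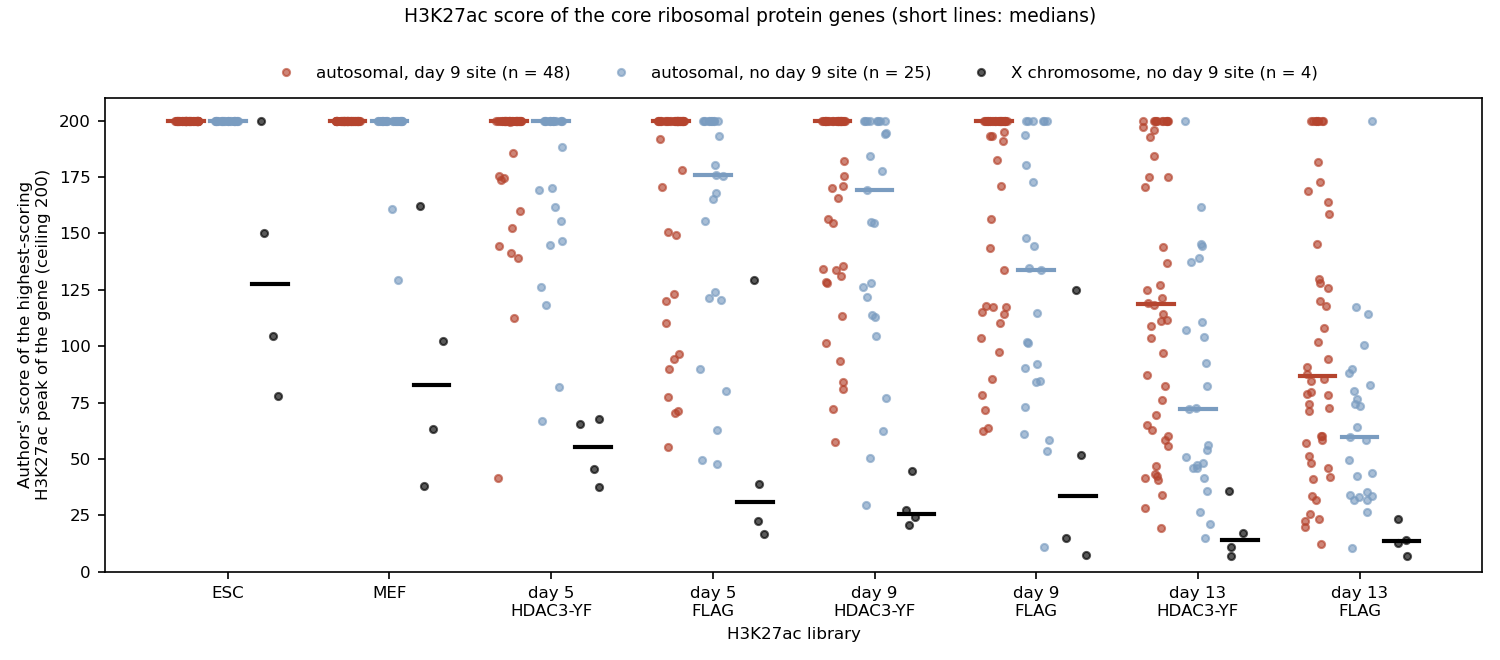
Each point is a core ribosomal protein gene, placed by the authors' score of its highest H3K27ac peak (ceiling 200) in each of the 8 lists, with short lines at the medians; red are autosomal genes with a day 9 co-repressor site (n = 48), blue autosomal genes without (n = 25) and black the 4 genes on the X chromosome. The black medians lie below both autosomal medians in every list, and the black points between 7.24 and 124.86 at day 9 with FLAG; scores are to be compared within a list.

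Promoter letters were searched from 250 bases before to 50 after each annotated start, on both strands, and counted once per gene. Of the 57 core genes with a promoter, 24 held CCGGAAG, the core of an ETS factor site, 42.1% against 12.9% of all 17492 genes. GGGCGG, the SP factor box, was in 35 of 57, 61.4% against 49.2%, and AAGATGGC, the YY1 site, in 5, 8.77% against 3.57%. CCAAT, the NF-Y box, was in 18, 31.6% against 42.3%, TATAAA in 6, 10.5% against 14.8%, and the NRF1 palindrome in 2, 3.51% against 1.47%. ETS letters were thus frequent. Counted per promoter instead of per gene, they were in 37.3% of 67 core promoters. They were in 34.7% of 75 promoters of mitochondrial ribosomal protein genes, against 11.6% of the 21263 promoters of all genes. A match is a run of letters and does not show that a factor was bound.

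CACGTG, the E-box that MYC and related factors bind, was in 6 of the 57 core genes, 10.5%, against 8.91% of all genes. All 6 were among the 36 genes with a day 9 co-repressor site in the gene body or within 1 kb of it, 16.7% of them, and none was among the 21 without. The 36 genes had 44 promoters searched and the 21 genes had 23, so more promoters per gene were read where a site was present. Over all genes the letters were in 12.6% of 4588 genes with a day 9 site and in 7.62% of 12904 without. They are printed in the direction of the gene with up to 20 bases on each side, or 12 inside a gene record, ending at most 10 bases from the start onward, and capitals mark the E-box.
Rpl13a, chr7:45128920-45128965, minus strand: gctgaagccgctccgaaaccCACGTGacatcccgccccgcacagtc
Rpl14, chr9:120571329-120571374, plus strand: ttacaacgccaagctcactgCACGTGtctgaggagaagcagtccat
Rpl19, chr11:98026679-98026708, plus strand: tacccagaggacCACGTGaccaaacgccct
Rpl23, chr11:97782430-97782454, minus strand: acgaggtccggtCACGTGgctgagt
Rpl34, chr3:130730528-130730573, minus strand: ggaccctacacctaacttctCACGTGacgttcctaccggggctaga
Rps19, chr7:24884781-24884810, plus strand: tggagccgcggcCACGTGcgagcggcaggc
The distances to co-repressor peaks follow in part from the search window, since both lie around starts. The distance of the E-box from the nearest day 9 NCoR centre was 49 bp at Rps19, 64 bp at Rpl34, 208 bp at Rpl23, 265 bp at Rpl14, 309 bp at Rpl19 and 357 bp at Rpl13a. At Rpl23 it lies across the annotated start, and at Rpl34 it begins 216 bases before one. Most genes with a day 9 site, 30 of 36, had no CACGTG in this window.

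The palindrome bound by BANP and ZBTB33 was in 6 of the 57 core genes, 10.5%, against 0.755% of all genes. It was in 4 of the 36 with a day 9 site and in 2 of the 21 without. Rps6, Rps19, Rpl10a and Rpl12 had a day 9 site, and Rpl26 and Rps28 had none. The sequences are given in the same way, with 10 bases on each side inside a gene record and the palindrome in capitals.
Rps6, chr4:86857389-86857438, minus strand: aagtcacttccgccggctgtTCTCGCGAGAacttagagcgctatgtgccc
Rps19, chr7:24884564-24884601, plus strand: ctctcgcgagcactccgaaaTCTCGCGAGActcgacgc
Rpl10a, chr17:28328524-28328553, plus strand: aacgggcaacTCTCGCGAGAacgcgggctc
Rpl12, chr2:32961638-32961687, plus strand: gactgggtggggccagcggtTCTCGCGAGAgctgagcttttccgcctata
Rpl26, chr11:68901520-68901569, plus strand: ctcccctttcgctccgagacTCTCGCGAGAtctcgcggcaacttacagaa
Rps28, chr17:33824553-33824573, minus strand: ccgcgtgcggTCTCGCGAGAg
The palindrome began 1 to 54 bases before the annotated start in these 6 genes. Rps19 was the gene with both elements, the E-box and the palindrome. The letters were found in 1.77% of all genes with a day 9 site and in 0.395% of those without. Among the core genes its share was 11.1% with a day 9 site and 9.52% without.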

How the data were processed

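The data were 12 deposited peak lists, 1 per library. Per the submitters' processing notes, Bowtie2 2.2.0, MACS 1.4 and build mm10 were used, without settings. Every interval was 200 bp wide, by a step that no source at hand describes. The authors' score runs from 6.22 to a ceiling of 200 in the deposited H3K27ac lists. Scores deposited for NCoR and SMRT take both signs and are no peak height. They were compared only at intervals common to both lists and with the range of each list. Read depth is unknown. The input library of the ESCs was not analysed here.

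Genes came from the RefSeq table of GRCm38.p6, which shares the coordinates of mm10. Start sites and promoter sequences came from the RefSeq promoter table of the same build, which gave 80 starts for 68 of the 88 genes, and these served for the planned count at start ends. Peaks were assigned by centre within 1 kb of either gene end, and co-repressor sites are NCoR and SMRT peaks merged where they overlapped by at least 1 bp. Gene ends count both termini and can hold a neighbour's peak. Python 3.11.15, pandas 2.3.3, NumPy 2.4.6, SciPy 1.17.1 and matplotlib 3.10.9 were used, and the window counting was tested on simulated data. No test between conditions was made.

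Named were genes with a site in both populations, up to 10 with a site in 1 (by number of co-repressor lists, H3K27ac libraries and symbol), genes without H3K27ac at an end in ESCs or MEFs, genes with an equal sign of HDAC3-YF minus FLAG over days (none), the 6 with most H3K27ac peaks, and Rplp0, Rplp1, Rplp2, Rpsa, Rpl5, Rpl11, Rps6, Rps27a, Rpl10 and Rps19. One gene that the rule names enters the counts and is not reported here by itself. Others were named after their values were seen. The members and lists were chosen with earlier results of these data known. Rpl32l, Rpl37rt and Rps23rg1 were put among the paralogs after the reference was seen, and the gene-body count, the shift of centres, the split by day 9 site, neighbours, snoRNA hosts, pseudogenes and the X chromosome were added after the data were seen. Alternatives were windows of 500 bp and 2.5 kb, any overlap, core genes, start sites, the top 50% of each H3K27ac list by score and the 14251 highest-scoring peaks of each.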

Additional observations from a re-analysis of the deposited data

Results flagged for a closer look

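Rpl4, a protein of the large subunit, was the gene whose H3K27ac difference between HDAC3-YF and FLAG had opposite signs on different days. The number of gene-end peaks with HDAC3-YF minus that with FLAG was 1 at day 5 and -1 at day 9, and 0 at day 13. The difference between days was not tested, since each condition had a single library. The peak concerned lay at the far end of the gene, nearer to an end of Snapc5. The peak at the Rpl4 start was present in all 6 OSKM libraries.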

How the results depend on the processing

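For 25 results, 182 alternative values were computed, of which 151 stayed within 1.5 times the reported count and 31 did not. The 31 all concern how many genes had more or fewer H3K27ac peaks, counts that were small to begin with. The number of genes with a day 9 site ranged from 37 to 51 and with an ESC site from 12 to 18.

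With start sites alone, HDAC3-YF exceeded FLAG at 1 gene at day 5, 0 at day 9 and 0 at day 13 and was below it at 0 at day 9, and ESCs exceeded MEFs at 4 and were below at 0. With any overlap, the count above FLAG was 1 at day 5, that below was 0 at day 9, and ESCs were below MEFs at 0. With core genes, ESCs exceeded MEFs at 3. With equal numbers of peaks, the counts above FLAG were 1 at day 5 and 2 at day 13, and ESCs were above MEFs at 2 and below at 2. With the top 50%, 1 gene was below FLAG at day 5, 1 above at day 9, 4 above and 1 below at day 13, and ESCs were above MEFs at 2 and below at 3. With 2.5 kb, 0 were below FLAG at day 9, 2 above and 1 below at day 13, and ESCs were above MEFs at 11 and below at 0. With 500 bp, 15 were below FLAG at day 5, 5 above and 4 below at day 9, 3 above at day 13, and ESCs were below MEFs at 7. The gene-body count, added after the data were seen, gave 3 above FLAG at day 13. The cause was not tested; the day 5 value at 500 bp goes with centres that lay further into the gene with HDAC3-YF. No paired analysis was possible because no 2 groups shared more than 1 replicate number, and no fit that takes the 3 days of HDAC3-YF and FLAG libraries as pairs was made. Unknown read depth limits what a missing peak shows, and the score ceiling hides differences among the strongest peaks.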

Other observations

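Several relatives of the ribosomal protein genes were looked at beside them. Fau, which encodes a ribosomal protein fused to a ubiquitin-like protein and escapes the symbol rule, and Rack1 and Naca, whose products bind the ribosome, all had H3K27ac at a gene end in ESCs, MEFs and day 9 cultures. A day 9 co-repressor site lay at 1 of these 3 and an ESC site at 0. Of 318 annotated pseudogenes with ribosomal protein symbols, 8 had H3K27ac at an end in ESCs, 2.52%, 7 in MEFs and 1 in the day 9 FLAG library. A day 9 site lay at 0 of the 318 and an ESC site at 1. How reads that match several places were handled is not stated, so a missing peak does not show that a pseudogene lacked the mark.

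Many introns of ribosomal protein genes hold small nucleolar RNAs, which guide the modification of ribosomal RNA. A day 9 site was sought in the gene body or within 1 kb of it. Such a site lay at 20 of the 30 ribosomal protein genes with an annotated snoRNA gene inside. It lay at 30 of the 58 without, and at 25.5% of all genes. All 30 hosts are core genes, whereas the 58 take in every paralog and retrogene. Among those paralogs and retrogenes only Rpl36al and Rps27l had such a site. The lower share of the 58 is thus made in part by gene class.

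For the 68 genes with a single gene-end peak in all 8 H3K27ac libraries, the place of that peak varied by a median of 224.5 bp between the libraries, from 62 to 734 bp, on intervals that are 200 bp wide.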
